A study of Mus musculus with 12 samples.

Results

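The sites described here are CCCGGG sequences that were highly methylated in colonic adenomas of control mice, with a mean level of 80% or more over 3 control adenomas. Members were autosomal sites with at least 100 reads in each of 11 of the 12 libraries. Of 164896 autosomal CCCGGG sites (mm9), 16868 met the depth rule, and 2028 of these (12.02%) were highly methylated. A further 3162 sites had a control mean of 20 to under 80% and are called partly methylated below, and 11678 had a mean under 20%. Since the control levels chose the sites, falls from the control mean are given as a description and were not tested. Comparisons between the mutant genotypes set no control level against a mutant level, and these were tested. The control adenomas were part of the main fit, so their values entered the estimate of spread behind each p-value. A fit of the compared adenomas alone, which leaves the controls out, was made as an alternative.

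Methylation was measured in whole colonic adenomas of C57BL/6J mice aged 150 to 160 days, 3 adenomas from each of 4 genotypes. Every mouse carried ApcMin/+, a germline truncating mutation of the tumour suppressor Apc that gives rise to intestinal adenomas. Control adenomas were Tet1+/+ Tdg+/+. The Tet1 null adenomas were Tet1-/- Tdg+/+. Tdg heterozygous adenomas were Tet1+/+ TdgN151A/+, with 1 allele of the N151A mutation, and double heterozygous adenomas were Tet1+/- TdgN151A/+. The library of double heterozygous adenoma 3 was shallow, with a median of 81.0 reads at the members, and it was left out, so 2 adenomas stood for that genotype. Whether adenomas of 1 genotype came from separate mice is not stated in the labels, so tests measure the spread between these adenomas alone. In whole adenomas, loss in some of the cells and partial loss in every cell cannot be told apart.

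Most CpG sites of a mammalian genome outside CpG islands are methylated, and the maintenance methyltransferase Dnmt1 copies that state to the new strand at each replication. Methylation is lost passively when the copying fails, or actively when a Tet enzyme oxidises 5-methylcytosine and the DNA glycosylase Tdg excises the oxidised base, which is then replaced by an unmethylated cytosine. The N151A mutation lies in the catalytic site of Tdg. Loss of methylation at sites that are normally methylated is a common feature of colorectal tumours. The assay cuts DNA first with SmaI, which cuts CCCGGG only where it is unmethylated, and then with XmaI, which cuts the sites that are left, and it counts the 2 kinds of ends.

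Reads per library ranged from 8213211 to 18865833 in the 11 libraries. Median depth at the members was 294 to 661 reads, and the median binomial standard error of a level was 1.00 to 1.54 percentage points (points below), which covers counting error only. The standard read as methylated lay between 98.86% and 99.18% in these libraries. Control, Tet1 null and Tdg heterozygous adenomas held both sexes by their Y chromosome reads, and the double heterozygous adenomas were male.

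The members stayed highly methylated in every genotype. The mean level over the 2028 sites was 90.8%, 89.4% and 90.5% in the control adenomas. It was 89.2%, 91.7% and 91.0% in the Tet1 null, 90.2%, 90.6% and 90.6% in the Tdg heterozygous and 91.7% and 90.4% in the double heterozygous adenomas. These ranges overlap, and the lowest of all was Tet1 null adenoma 1. Genotype means at a site lay above the control mean by a median of 0.21 points for Tet1 null adenomas, 0.46 points for Tdg heterozygous adenomas and 0.77 points for double heterozygous adenomas. Large losses were found at a small share of the sites.

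A site was counted as lost in an adenoma where its level was at least 20 points under the control mean. Of the Tet1 null adenomas, adenoma 1 had 32 lost sites, adenoma 2 had 4 and adenoma 3 had 6. In the Tdg heterozygous adenomas the counts were 37, 63 and 6, and in the double heterozygous adenomas 10 and 41. Each mutant genotype thus held both adenomas with few lost sites and adenomas with many, and the ranges of the genotypes overlap. As shares of the members, losses came to 0.690% ± 0.770 (SD, n = 3) for Tet1 null adenomas, 1.74% ± 1.41 (n = 3) for Tdg heterozygous adenomas and 1.26% ± 1.08 (n = 2) for double heterozygous adenomas. Without adenoma 1 the Tet1 null share was 0.246%. Without Tdg heterozygous adenoma 2 that genotype's share was 1.06%, and without adenoma 3 it was 2.46%. The double heterozygous share was 0.493% without adenoma 2 and 2.02% without adenoma 1. The 4 adenomas with 32 or more lost sites comprised 3 males and 1 female, Tdg heterozygous adenoma 1, and their median depths at the members were 615 to 661 reads, against 294 to 639 in the other 4.

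**Figure D1:**
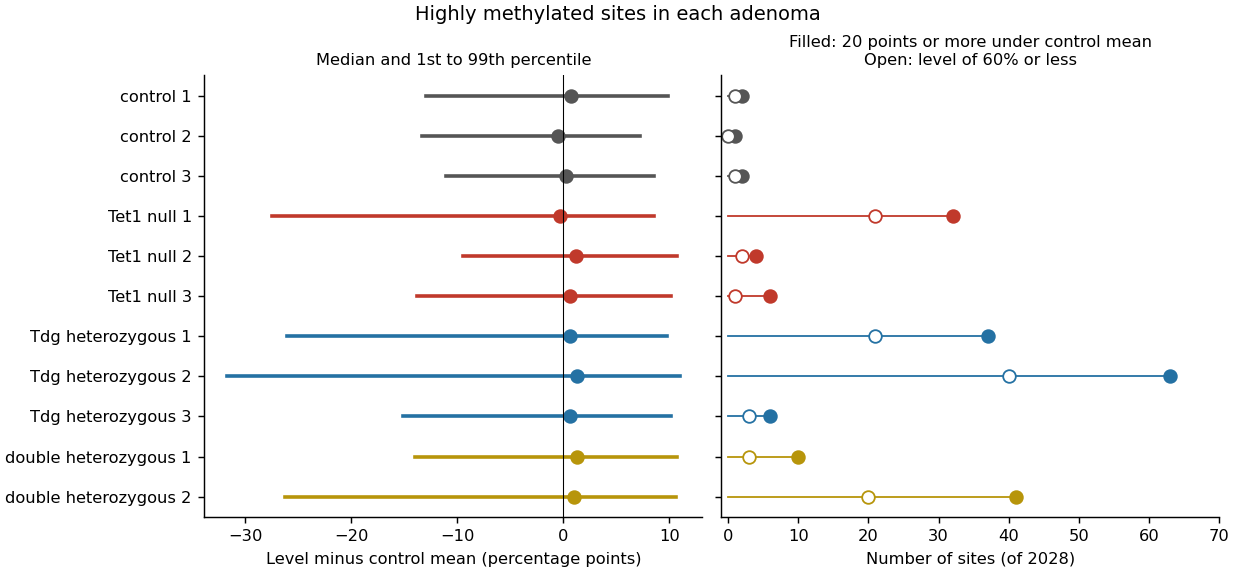
Left, the change of level from the control mean (percentage points) over 2028 highly methylated sites, with the median as a point and the 1st to 99th percentile as a line for each of 11 adenomas. Right, the number of sites 20 points or more under the control mean (filled) and at 60% or less (open); Tet1 null 1, Tdg heterozygous 1 and 2 and double heterozygous 2 have 32 to 63 filled counts and the other mutant adenomas 4 to 10, while the controls are low because they define the sites.

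The controls themselves showed 2, 1 and 2 such sites, but this count is held down by the rule, since a low control value keeps a site out. Each control was therefore held out in turn, with the sites chosen from the mean of the remaining pair and losses counted from that mean. Control 1 then had 51 lost sites of 2023, control 2 had 55 of 2114 and control 3 had 33 of 2021. The held-out shares were 2.52%, 2.60% and 1.63%. On the same sites, the means of the Tet1 null adenomas were 0.923%, 0.962% and 0.808%, those of the Tdg heterozygous adenomas 1.96%, 2.19% and 1.81%, and those of the double heterozygous adenomas 1.06%, 1.75% and 1.41%. Each held-out control lay above all 3 mutant means in the first 2 settings and below the Tdg heterozygous mean alone in the third. Tdg heterozygous adenoma 2 had more lost sites than the held-out control in each setting, with 69, 75 and 63. Tet1 null adenoma 1 (43, 42 and 37), Tdg heterozygous adenoma 1 (47, 50 and 38) and double heterozygous adenoma 2 (38, 53 and 43) had fewer than controls 1 and 2 and more than control 3. Tet1 null adenomas 2 and 3, Tdg heterozygous adenoma 3 and double heterozygous adenoma 1 had fewer, with 3 to 21. A control that did not choose the sites thus showed losses within the range of the mutant adenomas.

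**Figure D2:**
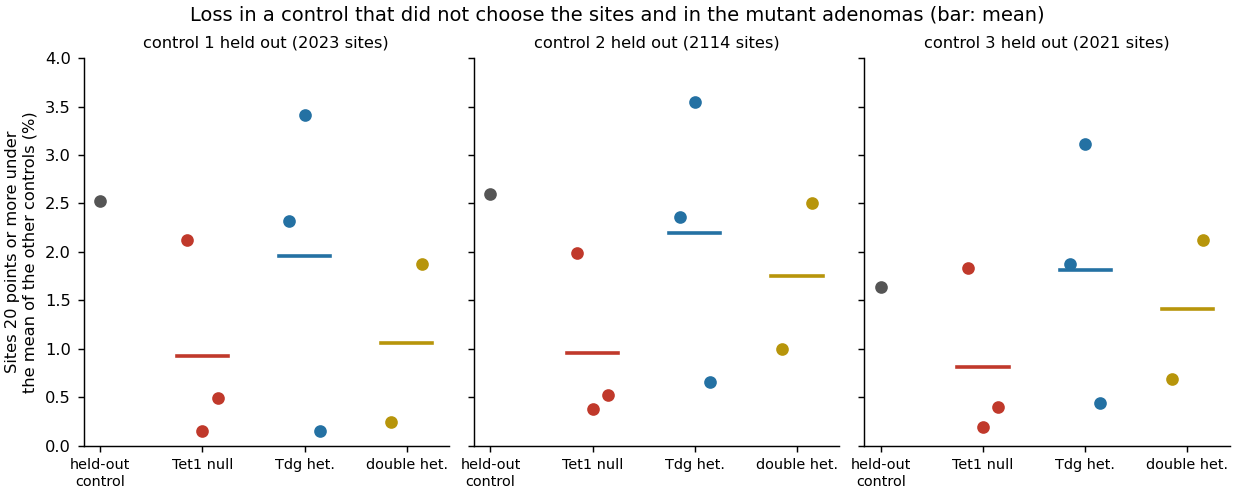
Share of sites (%) at least 20 points under the mean of 2 controls, for the held-out control (grey) and for each mutant adenoma (points) with genotype means (bars), in 3 panels by the control held out. The held-out controls, at 1.63 to 2.60%, lie within the range of the mutant adenomas, 0.148 to 3.55%.

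Small rises were more frequent than small falls, and large falls more frequent than large rises, which the rule limits. Over the 8 mutant adenomas there were 16224 values, of which 1367 lay at least 5 points under the control mean and 2173 at least 5 points above it. At 10 points the counts were 590 under and 208 above, and at 20 points 199 and 0. A level cannot rise by more than 20 points from 80% or more. The 1077 members with a control mean of 90% or more cannot rise by more than 10 points. The rule thus bounds the rises, and nothing is read from their contrast with the falls. A fall of at least 30 points occurred 65 times and one of at least 40 points 16 times. Levels of 60% or less numbered 111 (0.684% of the values). Of these, 83 lay above 50%, 17 above 40 and up to 50%, 9 above 30 and up to 40%, and 2 at 30% or less, so most of the large losses were partial. Depth at these values was not lower than elsewhere in the 4 adenomas that held 20 or more of them, with medians of 720 to 782 reads against 612 to 659 at their other members.

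Loss was rarely shared between adenomas. Of the 2028 sites, 1933 stayed above 60% in all 8 mutant adenomas, 84 reached 60% or less in 1 of them, 7 in 2, 3 in 3 and 1 in 4. Within the Tet1 null genotype, 24 sites were at 60% or less in an adenoma, each in a single one. The 3 adenomas held 21, 2 and 1 of them, which left little room for sharing. Among double heterozygous adenomas, which held 3 and 20, the 23 such sites were likewise each in a single adenoma. Tdg heterozygous adenomas had 58 such sites, of which 54 were in a single adenoma and 2 in all 3. Tdg heterozygous adenomas 1 and 2, with 21 and 40 sites at 60% or less, shared 4 (19.0% of the first list and 10% of the second). Adenomas of different genotypes shared up to 3. Tet1 null adenoma 1 and Tdg heterozygous adenoma 2 shared 3 (14.3% and 7.5% of their lists). Tdg heterozygous adenoma 2 and double heterozygous adenoma 2 also shared 3 (7.5% and 15%). Whether sharing differs between genotypes was not tested.

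The share of members with a loss was lower at higher control levels. Members with a control mean of 80 to 85% were lost in at least 1 mutant adenoma at 56 of 434 sites (12.9%), those of 85 to 90% at 59 of 517 (11.4%), those of 90 to 95% at 46 of 611 (7.53%) and those above at 8 of 466 (1.72%). Control adenomas also varied less at higher levels, with a median SD of 4.58, 3.33, 2.05 and 0.815 points in the same order. By chromosome, this share ran from 1 of 99 members on chromosome 9 (1.01%) to 7 of 49 on chromosome 16 (14.3%). Near the limit, the 3 members with the lowest control mean had 80% ± 6.82 (SD, n = 3; chromosome 14, position 56482315), 80.03% ± 3.23 (chromosome 19, position 6233821) and 80.04% ± 7.47 (chromosome 9, position 61005298). The 3 sites just under the limit had 79.99% ± 17.1 (chromosome 12, position 30141485), 79.99% ± 4.0 (chromosome 2, position 155106544) and 79.95% ± 7.50 (chromosome 2, position 172963845). Sites on the 2 sides of the limit thus differed by less than the spread of the controls.

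Spread within a genotype was small at most members. Control adenomas had a median SD per site of 2.23 points, Tet1 null adenomas 2.21, Tdg heterozygous adenomas 1.92 (n = 3 each) and double heterozygous adenomas 1.59 (n = 2). An SD above 10 points occurred at 81 members (3.99%) among control, 73 (3.60%) among Tet1 null, 146 (7.20%) among Tdg heterozygous and 137 (6.76%) among double heterozygous adenomas. The control count is held down by the rule, and the double heterozygous count rests on 2 adenomas. At partly methylated sites the median SD was 6.58 to 7.98 points in the 4 genotypes.

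The Tet1 null and Tdg heterozygous genotypes were compared first, because neither chose the sites. Methylation was higher in Tet1 null adenomas at 7 of 2024 members that could be tested and lower at 0 (edgeR, adjusted p under 0.05). These 7 were 0.346% of the members, and over all 14983 tested sites the share was 1.78%. At an unadjusted p under 0.05 there were 55 members (2.72%), 40 of them higher in Tet1 null adenomas, against 7.92% of all tested sites. The other 4 members held methylated reads alone in all 11 libraries and could not be tested. The median difference, Tet1 null minus Tdg heterozygous, was -0.218 points over the members and 0.02 points over all 16868 sites. Groups that did not overlap, with all Tet1 null values on 1 side, occurred at 61 members higher (3.01%, against 7.4% of all sites) and at 130 lower (6.41%, against 1.61%). A lower value at most of these 130 was a small one, since 14 of the 2028 members had a mean at least 10 points lower in Tet1 null than in Tdg heterozygous adenomas and 51 a mean at least 10 points higher. The count of 7 fell to 4 without Tet1 null adenoma 1, 2 without Tet1 null adenoma 3, 2 without Tdg heterozygous adenoma 1 and 3 without Tdg heterozygous adenoma 2. It was 3 by limma on count ratios and 4 with the replicate block. By limma on the logit of the adjusted level, 1 member was called, which was lower in Tet1 null adenomas and not among the 7.

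**Figure D3:**
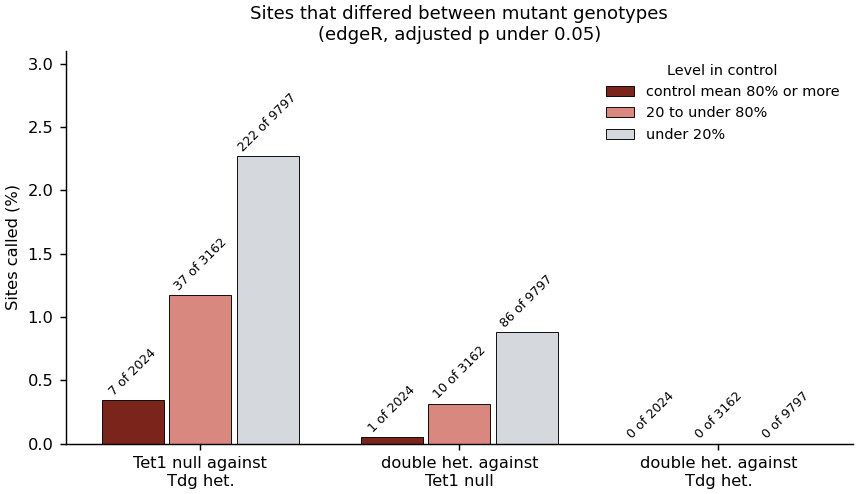
Share of tested sites (%) called in each comparison of mutant genotypes (edgeR, adjusted p under 0.05), by the mean level in control, with counts above the bars. Highly methylated sites were called at 7 of 2024, 1 of 2024 and 0 of 2024; the share was 1.17% and 2.27% at partly methylated and low sites in the first comparison, and the power of the test was not compared between classes.

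The largest of the 7 differences was at position 81832536 on chromosome 7 (mm9), a site with 1 other CCCGGG site within 500 bp. Its level was 35.4%, 43.4% and 40.9% in the Tdg heterozygous adenomas and 81.9%, 67.1% and 79.4% in the Tet1 null adenomas. All Tdg heterozygous values lay under all Tet1 null values, which differed by 36.3 points on average (edgeR adjusted p = 0.0121). Control levels were 86.1%, 74.4% and 81.7%, also above the Tdg heterozygous values, and the double heterozygous adenomas were apart from each other at 78.2% and 51.6%. Values at this site rested on 470 to 1168 reads per adenoma. It was the only member at 60% or less in 4 mutant adenomas, and it had the largest mean fall over the 8, at -21.0 points. The call held in 8 of 14 alternatives and was lost with the replicate block and with sex as a covariate, among others.

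On chromosome 18, position 82565815 was at 40.6%, 54.3% and 49.6% in Tdg heterozygous and at 91.8%, 72.7% and 86.6% in Tet1 null adenomas. The groups were 35.6 points apart and did not overlap (edgeR adjusted p = 0.0031). Control adenomas were at 89.1%, 73.4% and 87.3% and double heterozygous adenomas at 81.6% and 85.5%, so the Tdg heterozygous adenomas were the low ones among the 11. In the shallow double heterozygous adenoma 3, which is outside the main test, the level was 52.1% at 118 reads. This call held in 10 of 14 alternatives. The sites on chromosomes 7 and 18 were the 2 members lost in all 3 adenomas of a genotype.

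The other calls were smaller. Position 99029363 on chromosome 4 was at 95.9%, 92.9% and 94.7% in Tet1 null and 65.4%, 86.0% and 75% in Tdg heterozygous adenomas (edgeR adjusted p = 0.00866). Control 2, at 66.7%, was within 2 points of the lowest Tdg heterozygous adenoma there, with the other controls at 92.4% and 94.5%. Position 124792941 on chromosome 8 differed by 17.9 points (edgeR adjusted p = 0.0232), and there too control 2 was low, at 67.0%, against 97.5% and 86.5%. On chromosome 13, position 113023086 differed by 15.7 points (edgeR adjusted p = 0.048), with Tdg heterozygous adenoma 2 at 64.9% and adenomas 1 and 3 at 85.8% and 91.7%. The last 2 calls, singled out after their values were seen, were at position 90368319 on chromosome 6, with 78.6%, 76.5% and 95.2% in Tdg heterozygous adenomas, and at position 18976117 on chromosome 16, with 96.3%, 70.8% and 90.8%. Tet1 null values at both lay between 97.1% and 99.01%. The calls on chromosomes 4, 8 and 13 held in 7, 5 and 5 of 14 alternatives, and those on chromosomes 6 and 16 in 10 and 11.

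Between double heterozygous and Tet1 null adenomas, 1 member was called and it was lower in the double heterozygous adenomas (edgeR, 1 of 2024, 0.0494%), where 0.647% of all tested sites were called (0.00667% higher and 0.641% lower). At an unadjusted p under 0.05 there were 46 members (2.27%), against 4.71% of all tested sites. The called member was position 89417449 on chromosome 1. Its level was 68.3% and 56.8% in double heterozygous adenomas, against 94.2%, 89.4% and 92.2% in Tet1 null adenomas. The double heterozygous values were the lowest of the 11, with controls at 89.6%, 78.0% and 79.1% and Tdg heterozygous adenomas at 84.5%, 82.7% and 68.9%. The shallow double heterozygous adenoma 3, outside this test, was at 79.5% at 114 reads, within the range of the controls. The difference was -29.3 points (edgeR adjusted p = 0.0168) and the depth 472 to 1151 reads. The call held in 7 of 13 alternatives. It was lost without Tet1 null adenoma 1, without Tet1 null adenoma 3 and without double heterozygous adenoma 2. It was also lost with the replicate block, by limma on the logit, and with the compared adenomas alone, which leaves the controls out of the fit. Without double heterozygous adenoma 1 the comparison rested on a lone adenoma of that genotype, adenoma 2, assumed to vary like the other groups, and it called 12 members, all lower. The median difference was 0.689 points higher in double heterozygous adenomas over the members and 0.0 over all sites. Their values lay wholly above the Tet1 null values at 296 members (14.6%, against 4.11% of all sites) and wholly below at 103 (5.08%, against 7.9%). Groups of 2 and 3 adenomas separate more easily than 2 groups of 3, so these shares cannot be set against those of the first comparison. At 19 members the double heterozygous mean was at least 10 points above the Tet1 null mean, and at 44 at least 10 points below it.

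For double heterozygous against Tdg heterozygous adenomas, edgeR called 0 members and 0.0% of all tested sites. Both limma fits called 0, and at an unadjusted p under 0.05 edgeR had 59 members (2.92%), against 2.65% of all tested sites. Double heterozygous values lay wholly above at 255 members (12.6%, against 6.63%) and wholly below at 115 (5.67%, against 3.4%), again with 2 adenomas against 3. Among the members with the smallest p, position 170822710 on chromosome 2 was at 99.3% and 99.2% in double heterozygous and 89.2%, 87.4% and 97.1% in Tdg heterozygous adenomas (edgeR adjusted p = 0.0805). Position 82565815 on chromosome 18 was 35.4 points higher in double heterozygous adenomas (edgeR adjusted p = 0.773). In the other direction, double heterozygous adenomas had 98.3% and 80.01% at position 21013623 on chromosome 12, where Tdg heterozygous adenomas had 98.4%, 99.4% and 98.8%, and position 63421095 on chromosome 15 was at 71.3% and 48.9% against 83.2%, 89.7% and 91.5% (edgeR adjusted p = 0.904 at each). Without double heterozygous adenoma 1, with the same lone adenoma, 4 members were called, all lower. Without Tdg heterozygous adenoma 3, 1 member was called, which was higher.

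Against control, no test was made, and the members with the largest falls are given by their values. At position 62039785 on chromosome 18, with 1 other CCCGGG site within 500 bp, the controls were at 89.6%, 86.0% and 91.8%. Tet1 null adenoma 1 was at 23.0% and Tdg heterozygous adenoma 2 at 23.5%. In the other mutant adenomas the level was 77.0 to 92.4%, so adenomas of 2 genotypes had lost most of the methylation there and the others of the same genotypes had kept most of it. The SD within Tet1 null adenomas was 37.5 points, the largest at any member. At position 58116146 on chromosome 6, with controls between 81.5% and 85.5%, Tet1 null adenoma 1 was at 36.2% and Tdg heterozygous adenomas 1 and 2 at 55.0% and 51.2%. Tet1 null adenomas 2 and 3 were at 82.9% and 86.3%, within or close to the control values.

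The remaining members with large mean falls had the same form. Position 36550021 on chromosome 3 was at 56.7% and 44.2% in Tdg heterozygous adenomas 1 and 2, and at 73.9 to 80.6% in the other mutant adenomas. Position 112349894 on chromosome 5 was at 54.6% in Tet1 null adenoma 1 and 64.7% in Tdg heterozygous adenoma 1. Position 7983912 on chromosome 12 was at 47.4% in Tet1 null adenoma 1, and at 63.8% and 65.5% in Tdg heterozygous adenoma 1 and double heterozygous adenoma 2. Position 116390034 on chromosome 7 was lowest in Tdg heterozygous adenoma 2 (51.1%) and double heterozygous adenoma 2 (66.5%). In each of these, the lowest values came from the 4 adenomas with many lost sites. Large falls picked both these sites and these adenomas, so nothing is read from this. Position 56964303 on chromosome 2, outside this list and given below, was low in Tet1 null adenoma 2, Tdg heterozygous adenoma 3 and double heterozygous adenoma 1 instead.

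**Figure D4:**
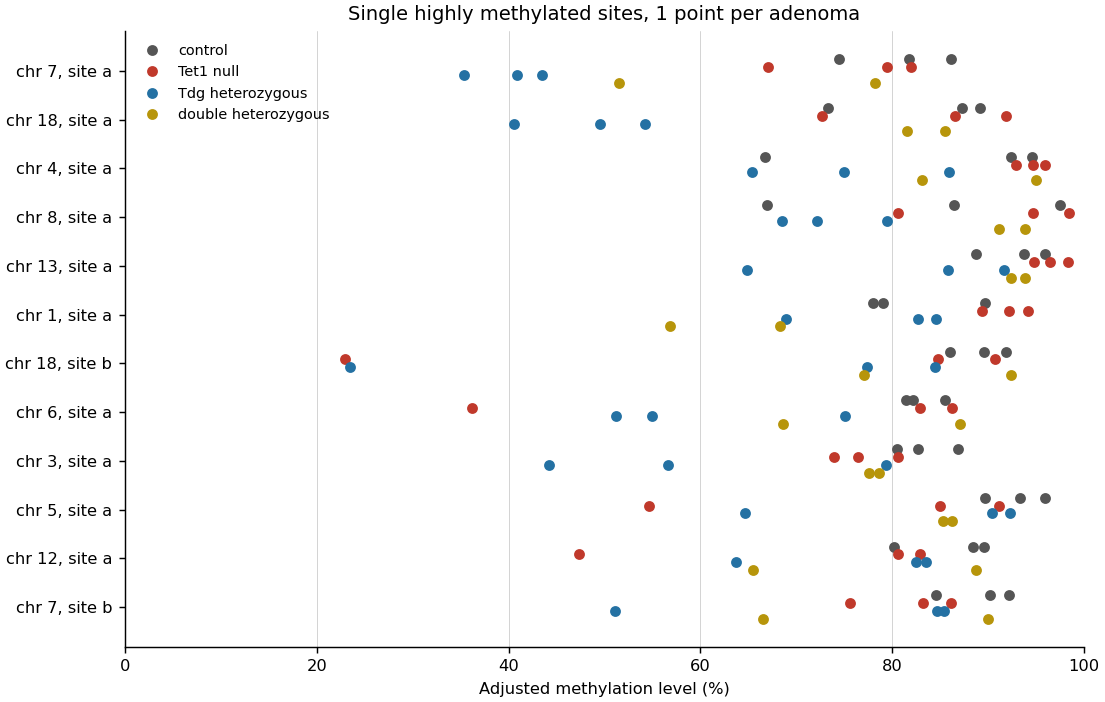
Adjusted methylation level (%) of 12 highly methylated sites, 1 point per adenoma, coloured by genotype. The upper 6 sites were called between mutant genotypes and the lower 6 are others with the largest mean fall. At the second site from the top the 3 Tdg heterozygous adenomas lie at 40.6 to 54.3% and all other plotted adenomas at 72.7 to 91.8%. The shallow double heterozygous adenoma 3 is not plotted and was at 52.1% at that site.

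Where all values of a genotype lay under all control values, the falls in Tet1 null adenomas were smaller. The largest was at position 8731243 on chromosome 15, where Tet1 null adenomas were at 65.9%, 94.0% and 75.7% and controls between 94.3% and 95.9%. It was followed by position 90077859 on chromosome 3 (67.7%, 88.2% and 84.1% in Tet1 null, 90.1% ± 1.57 in control adenomas) and position 37185167 on chromosome 13 (88.8%, 86.6% and 72.6%, against 91.9% ± 2.74). Such sites numbered 70 in Tet1 null (3.45%, against 0.937% of all sites), 58 in Tdg heterozygous (2.86%, against 1.58%) and 80 in double heterozygous adenomas (3.94%, against 2.3%). Sites with all values above the controls numbered 98 (4.83%, against 9.87%), 176 (8.68%, against 5.32%) and 375 (18.5%, against 11.1%). The control values that chose the members enter these counts, and nothing is read from them. In double heterozygous adenomas the largest of these falls were at position 63421095 on chromosome 15, position 89417449 on chromosome 1, both given above, and position 86191596 on chromosome 8, at 72.4% and 52.6% with controls between 79.9% and 84.8%.

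The lowest single values stood alone within their genotype at most of these sites, while adenomas of other genotypes were low at some of them. In the double heterozygous genotype, position 148215956 on chromosome 3 was at 33.0% in adenoma 2 and 81.3% in adenoma 1, and the other 9 adenomas lay between 68.1% and 82.0%. The shallow adenoma 3 of this genotype, which is not among the 9, was also low there, at 61.9% at 122 reads. Position 128119775 on chromosome 5 was at 37.7% in adenoma 2 and 80.2% in adenoma 1. Position 15166785 on chromosome 8 was at 49.1% and 95.6% in the same adenomas. Tdg heterozygous adenoma 2 was at 30.1% at position 140692025 on chromosome 7, at 34.8% at position 107710181 on chromosome 12 and at 36.02% at position 80595970 on chromosome 18. The other Tdg heterozygous adenomas were at 76.4% or more at these 3 sites. At the first of them, double heterozygous adenoma 2 was at 65.9%. Controls had such values as well, although the rule limits them. Control 3 was at 56.1% at position 190864826 on chromosome 1 and at 60.3% at position 50688789 on chromosome 7. Control 1 was at 56.4% at position 80477486 on chromosome 18, where Tet1 null adenoma 3 was at 61.4%.

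Nearly all members lay close to another CCCGGG site, which the rule did not use. Within 500 bp, 86.1% of the members had 1 other CCCGGG site, 10.3% had 2, 2.56% had 3 or more and 1.13% had none. Of all autosomal CCCGGG sites, 70.8% had no other within 500 bp, but of the sites that met the depth rule 1.06%, so this closeness is shared by all sites with enough reads. Among these, members resembled partly methylated sites, of which 89.3% had 1 neighbour and 1.20% had 3 or more, and differed from low sites, of which 24.3% had 3 or more. The median distance to the nearest site was 296 bp for members, 306 bp for partly methylated and 224 bp for low sites. Members with no site within 500 bp were few, 23, with a median control level of 99.8%, and 0 of them were lost in a mutant adenoma. Of members with 1 such site, 153 of 1745 were lost in at least 1 mutant adenoma (8.77%), of those with 2, 14 of 208 (6.73%), and of those with 3 or more, 2 of 52 (3.85%). Their median control levels rose in the same order, at 90.2%, 91.1% and 94.85%. The part of the control level in these shares was not tested.

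Neighbouring members did not lose methylation together in most cases. The members formed 1076 single sites, 456 runs of 2, 8 runs of 3 and 4 runs of 4, with no more than 500 bp between neighbours. This gave 484 pairs of neighbours, a median of 292 bp apart. In a given adenoma the levels of a pair differed by a median of 3.78 to 5.20 points. Over the 8 mutant adenomas a pair held a site at 60% or less 33 times. Both sites were at 60% or less in 2 of these cases, and in the other 31 the neighbour stood at 83.4% to 98.8%, with a median of 93.9%. None of the 31 neighbours lay between 60 and 80%. The sites of a pair share reads from the same stretch of DNA, and their depths correlated within an adenoma (r = 0.801 to 0.828 on log reads, across pairs).

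**Figure D5:**
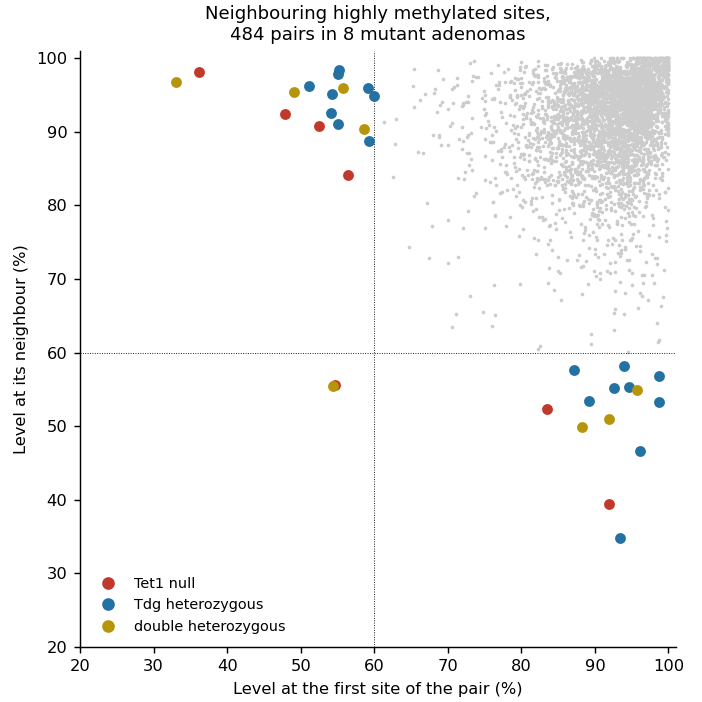
Levels (%) at the first and second site of 484 pairs of neighbouring highly methylated sites in 8 mutant adenomas. Pairs with a site at 60% or less are coloured by genotype; in 31 of these 33 the other site stands at 83.4 to 98.8% and 2 have both sites low, while grey points are all other values.

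The pair on chromosome 6 shows this form of loss. At position 58116146 the levels were 36.2%, 55.0% and 51.2% in Tet1 null adenoma 1 and Tdg heterozygous adenomas 1 and 2, as above. At position 58116434, 288 bp away, the same adenomas were at 98.2%, 97.9% and 96.3%, and the 11 adenomas ranged from 95.02% to 98.5%. The neighbour thus stayed within a few points of its control levels in the adenomas where the first site was low. On chromosome 8, position 89600937 was at 39.5% in Tet1 null adenoma 1 and 49.9% in double heterozygous adenoma 2, while position 89600611 was at 91.9% and 88.2% in them. The latter site was lowest in Tdg heterozygous adenoma 3, at 71.4%, where the former was at 83.8%. On chromosome 11, positions 59362266 and 59362449 were at 52.5% and 90.9% in Tet1 null adenoma 1 and at 82.3% and 60.5% in double heterozygous adenoma 2, so each adenoma was low at a different site of the pair.

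Both sites of a pair were at 60% or less on chromosomes 5 and 13. On chromosome 5, positions 112349894 and 112350108, 214 bp apart, were at 54.6% and 55.5% in Tet1 null adenoma 1. In the controls they were at 93.0% ± 3.12 and 82.7% ± 4.61 (SD, n = 3). In Tdg heterozygous adenoma 1 the first of them was low, at 64.7%, and the second, at 74.4%, was 3 points under the lowest control. On chromosome 13, positions 49269828 and 49270184, 356 bp apart, were at 54.4% and 55.5% in double heterozygous adenoma 2. Their controls were at 76.3%, 85.8% and 91.2% for the first and 79.99%, 89.4% and 81.7% for the second. In the longest runs, a loss could stand alone. Of the 4 members between positions 42948860 and 42950033 on chromosome 6, position 42949343 was at 55.2% in Tdg heterozygous adenoma 2, and the other 3 were at 92.6%, 98.4% and 98.2% in it. The mean of the 4 members between positions 125815974 and 125816735 on chromosome 4 stayed between 85.1% and 92.3% in the 11 adenomas.

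Neighbours of other classes were also counted. Of the members, 1755 had another site within 500 bp that met the depth rule. Among pairs of directly adjacent sites with a member, the second site was highly methylated in 483, partly methylated in 770 and low in 80. When a member was at 60% or less in a mutant adenoma, a partly methylated neighbour was at least 20 points under its own control mean in 7 of 60 cases (11.7%), and in 136 of 6100 cases (2.23%) when the member was above 60%. For highly methylated neighbours the counts were 4 of 35 (11.4%) and 68 of 7693 (0.884%), and the 4 are the pairs on chromosomes 5 and 13 counted from each side. Neighbours that were low in control had 0 of 6 and 0 of 634. The neighbour had not fallen by 20 points in most cases beside a low member. These counts pool adenomas that differ in their number of lost sites and use some sites more than once, and whether the shares differ was not tested.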

How the data were processed

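DNA of 12 adenomas, with methylation standards added, was digested with SmaI and then XmaI, per the labels' protocols. The submitters' processing notes name Trim Galore, Bowtie2 and mm9 without versions, while the extraction protocol's text names a rat genome. Each deposited file holds counts of methylated and of unmethylated reads at every CCCGGG site, per the file headers. It also holds the level as a percent, both raw and, per the labels, as the authors adjusted it with the standards. Levels in the text are adjusted levels.

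The genotype given by the labels set each adenoma's group. edgeR 4.0.16 (R 4.3.3) fitted methylated and unmethylated counts at 14983 sites with reads of both states, in 1 quasi-likelihood fit of 11 libraries with a coefficient for the depth of each adenoma, a coefficient for the methylated reads of each genotype and no dispersion trend. Two-sided p-values were adjusted by Benjamini-Hochberg over all tested sites, with a threshold of 0.05. The fit was tested on simulated data. Limma 3.58.1 served as an alternative, on log2 ratios of the deposited counts with 2 reads added to each and on the logit of the adjusted level. Other alternatives were depth minimums of 50 and 300 reads, all 12 libraries, the compared adenomas alone, a replicate block, sex as a covariate, other limits and leaving out each adenoma. Adenomas of the same genotype differed at 26.9 to 44.7% of the sites (chi-square p under 0.05), so none was counted as a repeat deposit.

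The members, rules and alternatives were chosen with earlier results of these data known. Named sites were, between mutant genotypes, up to 5 called members per direction with the largest difference among groups that do not overlap, or the 2 with the smallest p where none passed; the 8 largest mean falls over 8 mutant adenomas; per genotype the 3 largest falls without overlap and the 3 lowest single values; the 4 largest SDs; the 4 runs with the largest fall and the 2 with the most members; and 3 sites on each side of the limit. Sites are given by mm9 position. The gene and promoter tables at hand are of another build, so genes and sequences around the sites were not analysed here.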

Additional observations from a re-analysis of the deposited data

Results flagged for a closer look

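Highly methylated sites differed between mutant genotypes in 2 comparisons, by the test of the difference itself. Tet1 null and Tdg heterozygous adenomas differed at 7 members (edgeR, adjusted p under 0.05), all higher in Tet1 null adenomas. This was 0.346% of the members tested, against 1.78% of all tested sites. Double heterozygous and Tet1 null adenomas differed at 1 member, which was lower in double heterozygous adenomas (0.0494%, against 0.647% of all tested sites).

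The shallow library of double heterozygous adenoma 3 was outside the main comparisons and entered only the alternatives with all 12 libraries. At the 612 members with at least 100 reads in it as well, 3 were at 60% or less, against 1, 0 and 0 in the controls and 0 and 4 in the other double heterozygous adenomas. The control counts are held down by the rule, so nothing is read from their contrast with the 3. At the same sites the Tet1 null adenomas had 10, 1 and 0 and the Tdg heterozygous adenomas 6, 13 and 1. The mean level of the shallow library there was 89.4%, and the part of its depth in its 3 values was not tested.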

How the results depend on the processing

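Of 7 members called between Tet1 null and Tdg heterozygous adenomas, 3 remained at a depth minimum of 300 reads and 3 by limma on log2 ratios. With sex as a covariate 4 were called, 3 of them among the 7. With the compared adenomas alone, which leaves the controls out of the fit, 8 were called, and these included the 7. Limma on the logit called 1, lower in Tet1 null adenomas and not among the 7. Leaving out each adenoma gave 2 to 10. Between double heterozygous and Tet1 null adenomas the 1 call became 0 by limma on the logit, with the compared adenomas alone and with the replicate block, and 0 to 12 when each adenoma was left out. Between double heterozygous and Tdg heterozygous adenomas, 0 became 1 at a depth minimum of 300 reads, and 0 to 4 without single adenomas. The cause of these changes was not tested.

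With the replicate block, 4 of the 7 calls remained. Over all sites, deviations from the genotype means correlated at -0.452 to 0.291 between same-numbered adenomas, above 0.1 in 3 of 15 pairs. Between differently numbered adenomas they correlated at -0.524 to 0.524, above 0.1 in 10 of 30 pairs. Deviations within a genotype sum to 0 and are tied to each other, so these values cannot decide whether the numbers mark a pairing.

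The number of members was 1077 at a limit of 90%, 988 at 300 reads and 612 with 100 reads in all 12 libraries. It was 2021 to 2114 without single controls. Falls of 10 points or more raised the shares to 2.35% (Tet1 null), 4.62% (Tdg heterozygous) and 4.09% (double heterozygous). Without single adenomas or controls they ranged, in this order, from 0.246 to 0.962%, 1.06 to 2.46% and 0.493 to 2.02%. Falls of 30 points or more gave 0.296%, 0.559% and 0.321%, and levels of 60% or less 0.394%, 1.05% and 0.567%. With 100 reads in all 12 libraries, the 3 double heterozygous adenomas gave 0.599%. These are lower by over 1.5 times but moved by less than 1 SD, since the SDs are about as large as the shares. The other alternatives moved the shares by less than 1 SD as well. Depth limits a single level to a binomial standard error of 1.00 to 1.54 points (median per library).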

Other observations

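Across the 2028 members, the levels of Tet1 null adenoma 2, Tdg heterozygous adenoma 3 and double heterozygous adenoma 1 were more alike than those of any other adenomas of different or the same genotype. Pearson's r was 0.769, 0.759 and 0.752 for their 3 pairs, and 0.444 to 0.667 for all other pairs of the 11 adenomas, of which pairs within a genotype reached 0.513 to 0.663. At partly methylated sites the same 3 pairs were also the most alike (r = 0.877, 0.867 and 0.912, and at most 0.857 for other pairs). The likeness is thus not particular to the members. At low sites r was 0.867, 0.868 and 0.966 for them, and some other pairs lay above the first 2 of these. The points are sites of the same genome measured in each library and are no independent replicates. All 3 adenomas were among those with few lost sites.

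A site singled out after its values were seen, position 56964303 on chromosome 2, was at 39.6%, 59.2% and 49.7% in these 3 adenomas and at 78.7 to 90.9% in the other 8.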
